A study of Homo sapiens with 4 samples.

Results

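The genes studied here encode the initiator of blood coagulation on cell surfaces, the proteins that hold it and thrombin in check, and the receptors through which thrombin and related proteases signal to cells. They are 10 genes of 23228 in the count tables, found by gene symbol. F3 encodes tissue factor, and TFPI and TFPI2 encode Kunitz-type inhibitors. SERPIND1 and SERPINC1 encode inhibitors of thrombin, THBD and PROCR encode surface receptors of the protein C pathway, and F2R, F2RL1 and F2RL2 encode protease-activated receptors. They were measured in ES2 cells, an established human ovarian cancer line, kept in phenol red-free medium with 5% charcoal-treated serum. Cells were given vehicle or liquiritigenin (Liq), a plant flavanone used by the study as an agonist of estrogen receptor beta, for 24 h. Each group had 2 samples, and the Liq dose was 100 μM. All samples come from 1 line in culture, without platelets, plasma or vessel wall. The labels do not say whether samples of a group were separate cultures, so the spread between them may be technical. The genes were picked by name with their Liq over vehicle fold changes in these samples already known, that is, selected on this same contrast. Their differences between Liq and vehicle are therefore a description, without a test of their own.

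Tissue factor is a membrane protein that binds factor VII and starts the cascade that ends in thrombin. TFPI closes this step early, while antithrombin and heparin cofactor II trap thrombin and related proteases once formed, both faster when bound to glycosaminoglycans. Thrombin bound to thrombomodulin stops clotting and instead activates protein C held by its own receptor. Protease-activated receptors are G protein-coupled receptors that a protease switches on by cutting their extracellular end. Many carcinoma cells make tissue factor and these receptors.

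The libraries held 34573053 to 48933893 reads on genes, so that 3 counts corresponded to 0.0598 to 0.0844 CPM (counts scaled to library size, adjusted by the trimmed mean of M values, TMM). Of the 4 epithelial or Müllerian markers that never exceeded 10 counts, CDH1 had 0 counts in each sample and EPCAM had 1 to 3, although KRT7 had 8909 to 16922. Over the 9 epithelial and Müllerian markers the summed level was 459 to 499 CPM with vehicle and 531 to 577 CPM with Liq. KRT7 alone went from 252 ± 20 to 357 ± 29 CPM (SD, n = 2), and the markers did not move together. Over all tested genes, 4.29% were called higher and 2.16% lower by the rule given below. Of the 5 of these markers that were tested, 0 were called higher and 2 lower, with a median log2 fold change of -0.24. Those called were PAX8 and WT1, which mark Müllerian lineages, with 46 to 49 and 168 to 181 counts with vehicle and 12 to 29 and 98 to 140 with Liq (-1.34 and -0.68 on the log2 scale, edgeR's adjusted p = 0.00214 and 0.00285). Endothelial and liver cells are the usual sources of several of the proteins described below. Of 7 endothelial markers, 5 had at most 10 counts in any sample and 2 of these, CLDN5 and ERG, had 0 throughout, whereas CDH5 had 1712 to 2239 counts. Their summed level, nearly all from CDH5, was 53.3 to 55.9 CPM with vehicle and 46.1 to 49.6 CPM with Liq. KDR, the other tested endothelial marker, fell from 2.39 ± 0.06 to 1.38 ± 0.05 CPM (SD, n = 2), or -0.79 on the log2 scale (edgeR's adjusted p = 0.00603). All 5 hepatocyte markers had at most 10 counts, with ALB at 1 to 9 and TTR at 0. The leukocyte and platelet markers summed to 0.214 to 0.462 CPM with vehicle and 0.872 to 1.04 CPM with Liq, and PTPRC had at most 1 count. Of 2 tested, the platelet integrin gene ITGA2B was called higher, with 6 and 2 counts with vehicle and 9 and 25 with Liq (edgeR's adjusted p = 0.0182), while PF4 had 8 and 3 against 11 and 22 counts (edgeR's adjusted p = 0.0505). The part of these marker differences in the results was not tested. In bulk RNA, fewer cells of a kind and less RNA per cell cannot be told apart.

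Levels of the genes spanned a wide range in vehicle-treated cells. Levels of different genes are compared here as CPM per kb, the TMM-scaled CPM divided by the length of the canonical transcript. TFPI was highest, at 165 and 175 CPM per kb in the vehicle samples. TFPI2 followed at 80.3 and 81.8, F2R at 63.4 and 63.2, and PROCR at 53.7 and 51.0 CPM per kb. F2RL1 had 19.2 and 18.2 and F3 had 11.2 and 11.4 CPM per kb, so the tissue factor transcript was well below that of its inhibitor TFPI. SERPIND1 reached 6.47 and 5.90 CPM per kb and F2RL2 1.83 and 1.89 CPM per kb. The vehicle samples of each of these 8 genes did not overlap those of the next gene in the order. SERPINC1 and THBD lay far below, at most 0.0181 CPM per kb, and overlapped each other. The order of the highest genes rests on the length used. With all annotated exons merged, the order became TFPI2 at 73.2, F2R at 59.4 and TFPI at 56.0 CPM per kb, because the merged exons of TFPI cover 11714 bases against 3859 in its canonical transcript. With Liq, by canonical length, TFPI was followed by PROCR at 60.5 ± 1.5 (SD, n = 2), F2R at 58.4 ± 0.7 and TFPI2 at 44.4 ± 5.6 CPM per kb. The order of these genes with Liq rests on the length used as well. SERPIND1 and F2RL2 also changed places, at 1.02 ± 0.03 and 3.12 ± 0.11 CPM per kb.

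**Figure D1:**
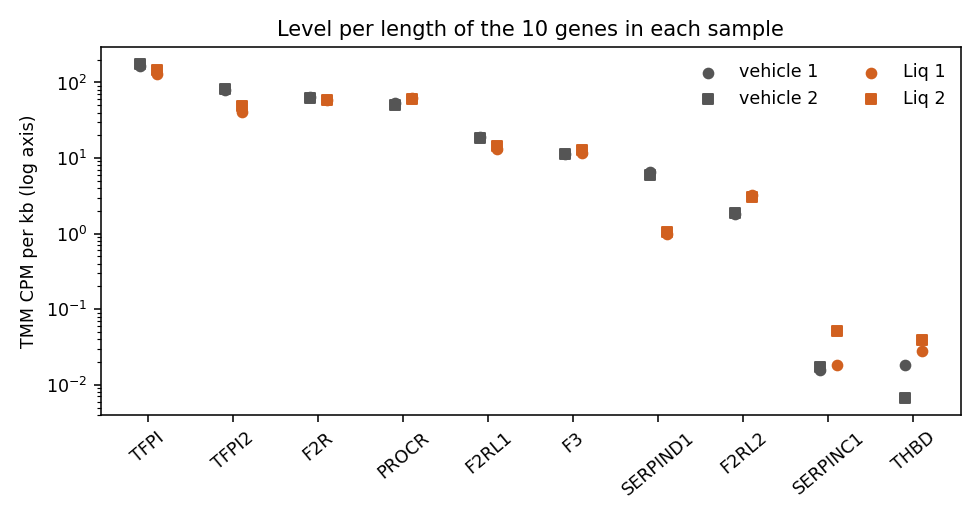
Level of each gene in each of the 4 samples, in TMM-scaled CPM per kb of canonical transcript on a log axis, ordered by the vehicle mean; grey marks are vehicle and orange marks are Liq samples. TFPI lies at 131 to 175, SERPIND1 and F2RL2 exchange their order with Liq, and SERPINC1 and THBD stay under 0.1.

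Of the 10 genes, 8 passed the filter on low counts, and SERPINC1 and THBD did not. A call required a 1.5-fold difference and a Benjamini-Hochberg adjusted p-value under 0.05 in edgeR's quasi-likelihood fit over 13546 genes. By this rule SERPIND1 and TFPI2 fell and F2RL2 rose with Liq, 3 of the 8, beside 6.45% of all tested genes (4.29% higher and 2.16% lower). TFPI and F2RL1 were lower and PROCR was higher by less than 1.5-fold, each past the p threshold, which 24% of all tested genes passed, while F3 and F2R passed neither threshold. PROCR lay close to that threshold and missed it in 6 of 11 refits with other settings or a sample left out, and TFPI missed it in 1. The groups did not overlap in any of the 8 genes, with Liq above vehicle in 3 and below it in 5. They did not overlap in 61.7% of all tested genes either, with Liq above in 31.5% and below in 30.2%. The median log2 fold change was -0.20 over the 8 genes and 0.01 over all tested genes. Nothing is read from these shares, since this contrast was known at the choice.

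**Figure D2:**
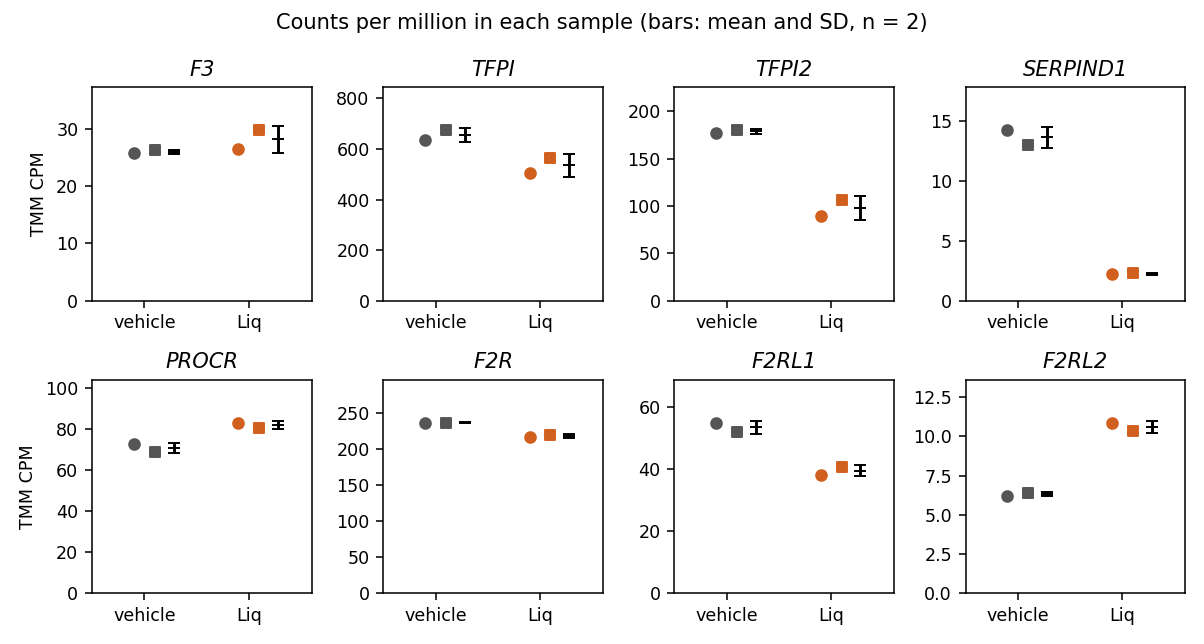
TMM-scaled CPM of the 8 tested genes in each sample, with the mean and SD of each group (n = 2) as bars beside the points and every axis starting at 0. SERPIND1 drops from 13.01 to 14.3 CPM with vehicle to 2.19 to 2.29 CPM with Liq, while F3 and F2R differ little.

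Tissue factor itself was little different between the groups. F3 (ENSG00000117525) lies on chromosome 1 from 94994729 to 95007315, minus strand (GRCh37, GENCODE annotation). It had 25.7 and 26.2 CPM with vehicle and 26.5 and 29.7 CPM with Liq. The samples did not overlap, but the gap between the groups was smaller than the gap between the Liq samples. The log2 fold change was 0.12 (SE 0.09), and without Liq replicate 2 it was 0.03. The promoter of F3 is shown beside that of TFPI2, since F3 passed neither threshold and TFPI2 fell, and both carry AP-1 letters. The bases are the 250 upstream of the RefSeq transcription start, from RefSeq on GRCh38.p14, given 5′ to 3′ on the gene's strand, at chr1:94541760-94542009 (minus strand) for F3 and chr7:93890754-93891003 (minus strand) for TFPI2. Capitals mark matches on either strand. The letters searched were TGANTCA for the factor AP-1. For Sp1 the search used GGGCGG on its own. The TATA box was read as TATAAA without flanks. An estrogen response element half-site was read as AGGTCA where present. The antioxidant response element core was TGACNNNGC in this search. The NF-κB consensus was also searched.
F3: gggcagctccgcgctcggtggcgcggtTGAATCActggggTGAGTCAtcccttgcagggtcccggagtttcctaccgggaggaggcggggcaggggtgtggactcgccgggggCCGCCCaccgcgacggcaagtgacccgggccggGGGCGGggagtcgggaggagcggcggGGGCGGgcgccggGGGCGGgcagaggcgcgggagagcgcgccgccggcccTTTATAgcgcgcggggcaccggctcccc
TFPI2: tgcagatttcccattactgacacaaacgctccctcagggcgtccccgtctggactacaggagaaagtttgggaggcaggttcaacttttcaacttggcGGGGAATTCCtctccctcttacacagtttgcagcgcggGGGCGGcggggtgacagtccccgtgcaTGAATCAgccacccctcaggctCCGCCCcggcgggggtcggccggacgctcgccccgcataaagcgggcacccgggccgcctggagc
The F3 window held AP-1 letters starting 223 and 210 bases before the start, 4 Sp1 matches and TATA letters starting 28 bases before it. The TFPI2 window held an NF-κB match starting 152 bases before the start, AP-1 letters at 87 and 2 Sp1 matches. No match overlapped another. In windows of the same length, AP-1 letters occurred in 6.57%, Sp1 letters in 42.6%, TATA letters in 10.7% and the NF-κB consensus in 9.96% of 35116 promoters. A match describes letters only.

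The tissue factor pathway inhibitors were both lower with Liq, and to unequal extents. TFPI (ENSG00000003436, chromosome 2 from 188328957 to 188430487, minus strand), which blocks factor Xa and the complex of tissue factor with factor VIIa, had 637 and 675 CPM with vehicle. With Liq it had 504 and 566 CPM, a log2 fold change of -0.29 (SE 0.07), and -0.25 (SE 0.09) without vehicle replicate 2, where it missed the p threshold. Both Liq samples were below both vehicle samples, by less than 1.5-fold. Its transcripts encode forms that are secreted or bound to the membrane, and counts per gene do not separate them. TFPI2 (ENSG00000105825, chromosome 7 from 93514708 to 93520065, minus strand), a matrix-associated relative that mainly inhibits plasmin and trypsin, had 177 and 180 CPM with vehicle and 89.1 and 107 CPM with Liq. It fell from 178.8 ± 2.3 to 97.9 ± 12.4 CPM (SD, n = 2), which is -0.87 ± 0.08 (SE) on the log2 scale, or 1.82-fold lower. The Liq samples differed from each other by 1.20-fold, more than the vehicle samples at 1.02-fold. GNGT1, on the opposite strand, spans TFPI2 and shares 44 exonic bases with it, and had 0 or 1 count in each sample.

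Ratios of raw counts within a library need no scaling between libraries. For each TFPI read, the vehicle samples had 0.0403 and 0.0388 F3 reads, against 0.0526 and 0.0525 with Liq. The ratio of F3 to TFPI reads was thus 1.33 times as large with Liq, with far less difference between the samples of a group. Such a ratio does not remove a bias that follows expression level. With offsets that follow expression level, the log2 fold changes were 0.10 for F3 and -0.20 for TFPI, against 0.12 and -0.29 in the main fit. TFPI2 had 0.278 and 0.267 reads per TFPI read with vehicle and 0.177 and 0.188 with Liq. These ratios are of reads and are not corrected for gene length.

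Of the serpin genes studied here, SERPIND1 was clearly detected and SERPINC1 was not. SERPIND1 (ENSG00000099937, chromosome 22 from 21128401 to 21142008, plus strand) encodes heparin cofactor II, which inhibits thrombin in the presence of dermatan sulfate. It had 586 and 487 counts with vehicle and 78 and 115 with Liq, or 14.3 and 13.01 CPM against 2.19 and 2.29 CPM. The groups stood far apart, and samples of 1 group differed by at most 1.10-fold. The log2 fold change was -2.60 (SE 0.14), a 6.06-fold fall, and it ranked 6 from the lowest among the 13546 tested genes. SERPINC1 (ENSG00000117601, chromosome 1 from 173872938 to 173886465, minus strand), which encodes antithrombin, had 1 count in each vehicle sample and 1 and 4 in the Liq samples. Its level was not distinguishable from the detection limit, and no fold change is given.

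SERPIND1 lies wholly within the span of PI4KA, a lipid kinase gene on the opposite strand, and the annotated exons of the genes share 0 bases. PI4KA had 52.1 and 53.0 CPM with vehicle and 50.5 and 47.6 CPM with Liq, or -0.10 ± 0.08 (SE) on the log2 scale (edgeR's adjusted p = 0.401). SERPIND1 had 0.274 and 0.246 reads per PI4KA read with vehicle and 0.0435 and 0.0481 with Liq. The Liq ratios were thus far below the vehicle ratios within each library. The strand setting of the counting is not given in the sources used here, so reads from unspliced PI4KA RNA over SERPIND1 exons could not be separated. The SERPIND1 promoter is shown because this gene had the largest difference of the 10 (GRCh38.p14, chr22:20773863-20774112, plus strand, capitals as above).
SERPIND1: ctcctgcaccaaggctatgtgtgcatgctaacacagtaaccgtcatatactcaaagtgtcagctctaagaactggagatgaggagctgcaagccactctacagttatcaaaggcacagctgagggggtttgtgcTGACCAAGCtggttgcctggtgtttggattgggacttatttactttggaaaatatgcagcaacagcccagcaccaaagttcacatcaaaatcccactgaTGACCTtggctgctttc
This window had a GC content of 47.6%, against a median of 58% over all promoters. It held antioxidant response element core letters starting 116 bases before the start, found in 10.9% of all promoters, and an estrogen response element half-site at 17, found in 12.1%. It held no match to AP-1, Sp1, TATA or NF-κB letters.

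Of the protein C pathway receptors, PROCR was expressed and THBD was barely detected. PROCR (ENSG00000101000, chromosome 20 from 33759875 to 33804043, plus strand), the endothelial protein C receptor, had 72.5 and 68.8 CPM with vehicle and 83.1 and 80.3 CPM with Liq. All Liq values were above all vehicle values, with a log2 fold change of 0.21 (SE 0.08), under 1.5-fold. It was 0.25 (SE 0.13) without vehicle replicate 1, 0.17 (SE 0.13) without vehicle replicate 2 and 0.18 (SE 0.08) without Liq replicate 1, and missed the p threshold each time. A long noncoding RNA on the opposite strand shares 218 of its annotated exonic bases, 12.8% of the merged exons of PROCR, and was not counted under its own symbol. THBD (ENSG00000178726, chromosome 20 from 23026270 to 23030309, minus strand), which encodes thrombomodulin in 1 exon, had 3 and 1 counts with vehicle and 4 and 8 counts with Liq. It failed the filter on low counts, and a difference was not detectable at this depth. F3 and PROCR transcripts kept overlapping ratios, with 0.354 and 0.381 F3 reads per PROCR read with vehicle and 0.319 and 0.371 with Liq.

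The receptor genes F2R, F2RL1 and F2RL2 lie in a cluster of 219834 bases on chromosome 5, from 75911307 to 76131140. They differed in direction. F2R (ENSG00000181104, 76011951 to 76031595, plus strand) encodes PAR1, the main thrombin receptor of many cell types. It had 236 and 235 CPM with vehicle and 216 and 220 CPM with Liq, a log2 fold change of -0.12 (SE 0.07). The samples did not overlap, but the difference passed neither threshold. F2RL1 (ENSG00000164251, 76114758 to 76131140, plus strand) encodes PAR2, which trypsin-like proteases and the tissue factor complex cleave and thrombin does not readily activate. It had 55.0 and 52.0 CPM with vehicle and 38.2 and 40.8 CPM with Liq. Both Liq samples were lower, with a log2 fold change of -0.44 (SE 0.08), a decrease of 26.1%. An uncounted long noncoding RNA on the opposite strand overlaps 304 exonic bases of F2RL1, 10.4% of its merged exons.

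F2RL2 (ENSG00000164220, 75911307 to 75919238, minus strand) encodes PAR3, a further receptor that thrombin cleaves. It was the only 1 of the 10 genes called higher, with 256 and 240 counts with vehicle and 387 and 519 with Liq. These were 6.23 and 6.41 CPM against 10.9 and 10.3 CPM, and the samples of a group differed by at most 1.05-fold. The log2 fold change was 0.75 (SE 0.12), or 1.68-fold. F2RL2 is separated from F2R by 92712 bases and F2R from F2RL1 by 83162 bases. It lies on the opposite strand within the span of IQGAP2, a scaffold protein gene, with 87 exonic bases in common. IQGAP2 had 1.82 and 1.87 CPM with vehicle and 1.38 and 1.22 CPM with Liq (-0.52 ± 0.22 SE as a log2 fold change, with an edgeR adjusted p = 0.0889), so the overlapping gene was lower on average and was not called. The F2RL2 promoter is shown as that of the gene called higher (GRCh38.p14, chr5:76623404-76623653, minus strand, capitals as above).
F2RL2: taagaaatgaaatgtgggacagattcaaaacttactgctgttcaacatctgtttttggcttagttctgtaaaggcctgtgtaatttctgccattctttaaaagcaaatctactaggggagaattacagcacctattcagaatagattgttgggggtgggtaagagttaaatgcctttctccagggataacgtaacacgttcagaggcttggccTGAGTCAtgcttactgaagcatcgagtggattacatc
Its GC content was 40.8%, and its only match was to AP-1 letters, starting 37 bases before the start. The share of each gene in the receptor reads can be compared within a library. F2R gave 79.4% and 80.1% of the reads on the 4 receptor genes with vehicle and 81.5% and 81.1% with Liq. F2RL1 gave 18.5% and 17.7% against 14.4% and 15.1%, and F2RL2 gave 2.09% and 2.18% against 4.11% and 3.82%. F2RL3, which encodes the thrombin receptor PAR4, had 1 count in 1 vehicle sample and 0 in the others, where 3 counts would be 0.0598 to 0.0844 CPM.

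**Figure D3:**
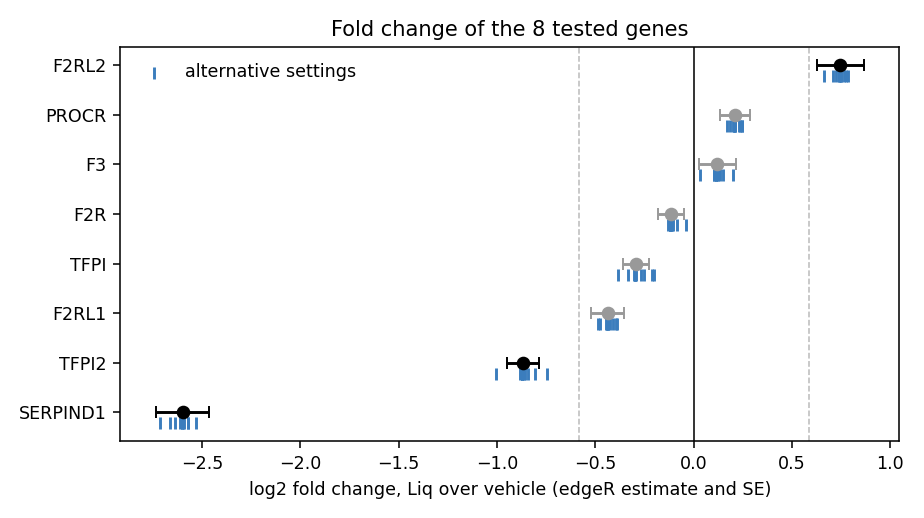
Log2 fold change of the 8 tested genes, Liq over vehicle, with the SE from edgeR; black points were called and grey points were not, dashed lines mark 1.5-fold, and blue ticks below each point are the estimates under alternative settings. SERPIND1 at -2.60, TFPI2 at -0.87 and F2RL2 at 0.75 lie beyond the dashed lines, and no gene changes direction.

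Promoter sequences were found for 7 of the 10 genes; those of F2R, THBD and SERPINC1 are named only. AP-1 letters were present upstream of F3, TFPI2 and F2RL2, and in 6.57% of all promoters. Estrogen response element half-sites were present upstream of SERPIND1 and TFPI, at 17 and 80 bases, and in 12.1% of all promoters. Sp1 letters occurred in F3, TFPI2, PROCR and F2RL1, and in 42.6% of all promoters. A link between these matches and the differences with Liq was not tested. The windows ranged in GC content from 38.4% for TFPI to 78% for F3.

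**Figure D4:**
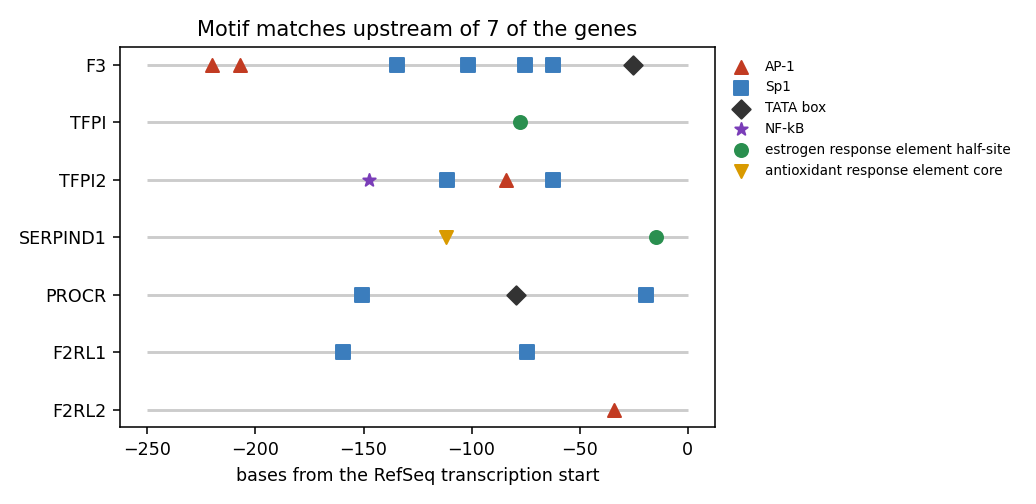
Motif matches in the 250 bases upstream of the RefSeq start of 7 of the genes, placed by distance in bases from the start, with a symbol for each motif. F3 carries 7 matches, whereas TFPI and F2RL2 carry 1 each.

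The wider pathway was followed in 7 hand-written lists of 98 genes. The lists were chosen with earlier results of these data known, so their counts, shares and p-values are a description. Of the 98 genes, 61 passed the filter on low counts. Of these, 2 rose and 2 fell, or 6.56%, close to the 6.45% of all tested genes. The median log2 fold change was 0.03 over the lists and 0.01 over all tested genes. ES2 cells had few reads for plasma coagulation factors. Of 18 genes for coagulation factors and their export, 8 had 0 counts in every sample and only 5 were tested. F7, F9 and F10, whose products act with tissue factor, had 0 counts, and F2, which encodes prothrombin (all 4 chosen after their values were seen), had 1 count in 1 vehicle sample. None of the 5 was called by edgeR or DESeq2, and 1 had an unadjusted edgeR p-value under 0.05, against 36.1% of all tested genes. This was F8, chosen after its values were seen, with 9.66 and 9.11 CPM with vehicle and 10.9 and 13.2 CPM with Liq (0.37 ± 0.12 SE as a log2 fold change, with an edgeR adjusted p = 0.0230). MCFD2, part of the cargo receptor for factors V and VIII, was the most abundant at 779 ± 13 and 734 ± 31 CPM (SD, n = 2).

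None of 6 tested genes for other anticoagulant proteins and protease inhibitors was called by edgeR or DESeq2. Of the 11 listed, 4 had 0 counts. An unadjusted edgeR p-value under 0.05 was found for 1 of the 6, beside 36.1% of all tested genes. SERPINA5, the protein C inhibitor gene, chosen after its values were seen, had 3.80 ± 0.16 and 5.29 ± 0.97 CPM (SD, n = 2; edgeR's adjusted p = 0.0204), an increase of 40.5%. Among 6 tested genes of the vitamin K cycle and γ-carboxylation, which equips clotting factors to bind membranes, all 6 log2 fold changes were positive, as were 51% of all, with a median of 0.14. None was called by edgeR or DESeq2, and 2 had an unadjusted edgeR p-value under 0.05, beside 36.1% of all tested genes. The adjusted p-value was also under 0.05 for 1 that was higher, beside 12.6% of all tested genes. GAS6 was on average the most abundant with vehicle, at 99.7 ± 7.9 CPM, and had 104.9 ± 8.9 CPM with Liq (SD, n = 2). VKORC1, chosen after its values were seen, had 93.6 ± 10.5 CPM with vehicle and 107.6 ± 8.4 CPM with Liq (SD, n = 2). Of 5 tested genes for exposure of phosphatidylserine, the membrane lipid on which clotting complexes assemble, none was called by edgeR or DESeq2. An unadjusted edgeR p-value under 0.05 was found for 1 of the 5, beside the same 36.1%. TMEM30A was the most abundant, at 447 ± 11 and 499 ± 40 CPM (SD, n = 2).

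Downstream of the receptors, 0 of 19 tested genes for G proteins and effectors were called by edgeR or DESeq2. By edgeR's unadjusted p-value, 1 was higher and 4 were lower under 0.05, beside 18.8% and 17.3% of all tested genes. The adjusted p-value was also under 0.05 for 4 that were lower, beside 11.3% of all tested genes. The most abundant was RHOA, a small GTPase, at 509 ± 11 and 434 ± 16 CPM (SD, n = 2), or -0.23 ± 0.06 (SE) on the log2 scale (edgeR's adjusted p = 0.00950). The list median was -0.05. Upstream, 8 of 15 proteases that can cleave these receptors had 0 counts and 3 were tested, of which 2 fell, beside 2.16% of all tested genes. MMP1, a collagenase known to cleave PAR1, fell from 20819 ± 142 to 6041 ± 92 CPM (SD, n = 2), or -1.79 ± 0.05 (SE) on the log2 scale (edgeR's adjusted p = 2.64e-20). PRSS3, a trypsinogen gene, fell from 51.5 ± 5.2 to 30.8 ± 0.2 CPM (SD, n = 2), or -0.74 ± 0.09 (SE) on the log2 scale (edgeR's adjusted p = 7.04e-07). PRSS3 has close copies, so its count is uncertain. GZMA, the remaining tested protease gene, had 8 to 24 counts and was not called (edgeR's adjusted p = 0.483).

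Glycosaminoglycans are cofactors of antithrombin and heparin cofactor II. Of 17 tested genes for glycosaminoglycan synthesis and core proteins, 2 rose and 0 fell, by edgeR and by DESeq2. In edgeR, 4.29% of all tested genes were called higher and 2.16% lower. At an unadjusted edgeR p-value under 0.05, 6 were higher and 2 lower, beside 18.8% and 17.3%. GPC1, a heparan sulfate proteoglycan, had 4.99 and 5.02 CPM with vehicle and 11.98 and 10.6 CPM with Liq, or 1.17 ± 0.12 (SE) on the log2 scale (edgeR's adjusted p = 8.23e-08). HSPG2, encoding perlecan, had 53.1 and 45.7 CPM with vehicle and 98.9 and 90.1 CPM with Liq, or 0.93 ± 0.08 (SE) on the log2 scale (edgeR's adjusted p = 4.88e-09). For both genes the Liq samples were well above the vehicle samples. SDC1 was the most abundant uncalled gene, at 335 ± 15 and 408 ± 5 CPM (SD, n = 2). The syndecan genes SDC2 and SDC4, chosen after their values were seen, had log2 fold changes of 0.54 and -0.53 (edgeR's adjusted p = 0.000501 and 1.04e-05), both under 1.5-fold. HS3ST1, the sulfotransferase that makes antithrombin-binding heparan sulfate, also chosen afterwards, had 66 and 74 counts with vehicle and 90 and 116 with Liq, and was not called (edgeR's adjusted p = 0.114). DSE and CHST14, which act in dermatan sulfate synthesis and were likewise chosen afterwards, were at 46.0 and 28.5 CPM with vehicle and 40.5 and 26.0 CPM with Liq, without a call.

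**Figure D5:**
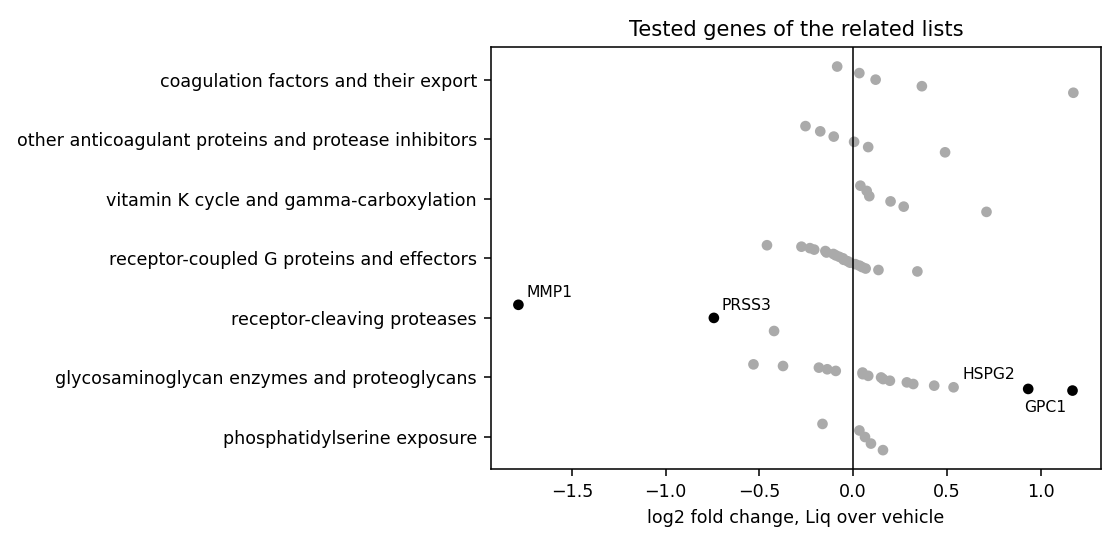
Log2 fold change, Liq over vehicle, of the 61 tested genes in the 7 related lists, with 1 point per gene; black points were called and carry their names. MMP1 and PRSS3 lie to the left and GPC1 and HSPG2 to the right. KLKB1, chosen after its values were seen, lies beside GPC1 at 1.17, but had 1 to 14 counts and was not called. The other uncalled genes lie from -0.53 to 0.71.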

How the data were processed

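The authors made TruSeq libraries, sequenced 100 bp single-end reads, aligned them to hg19 with TopHat2 2.0.8b and counted reads per gene with HTSeq (names and versions per the submitters' processing notes). They deposited raw counts for each of the 4 samples, neither normalized nor pooled. Alignments that were not unique, 35.6% to 36.2% of each table's total, are not assigned to genes. This undercounts genes with close copies. The strand setting and gene annotation are not given in the sources used here.

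The edgeR package 4.0.16 (R 4.3.3) was used, with filterByExpr (minimum count 10, minimum total 15), TMM scaling, and a quasi-likelihood F test of Liq against vehicle that had no replicate term. The SE is the log2 fold change divided by the square root of F. DESeq2 1.42.0 was an alternative. On simulated counts for 13546 genes with 200 changed, the edgeR fit recovered 198 and made 2 false calls. Recovery is not given by fold or by count level, and sensitivity in the 4 real samples was not tested. Counts of the vehicle samples differed by a chi-square of 6.33 per degree of freedom and those of the Liq samples by 11.1, both above sampling noise. Gene coordinates and lengths are from GENCODE on GRCh37, the build of the alignment; promoters are from RefSeq on GRCh38.p14. The genes, lists and motifs were chosen with earlier results of these data known. All 10 genes are named, as are the called genes of each list, up to 4, and its most abundant uncalled gene, except 1 gene that is not reported here. Other named genes are marked in the text. With 2 samples per group, the p-values rest on a spread that edgeR shares across genes.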

Additional observations from a re-analysis of the deposited data

How the results depend on the processing

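The log2 fold changes of the 8 tested genes kept their direction under all 11 refits, and each gene kept its call by fold and adjusted p. By the adjusted p alone, PROCR passed in 5 of the 11 and TFPI in 10, and the other 6 genes kept their side. PROCR missed it with DESeq2 size factors, without a filter, by DESeq2's Wald test, and without either vehicle sample or Liq replicate 1. The refits used DESeq2 size factors, upper-quartile scaling, no filter, a stricter filter (10 counts or more throughout), DESeq2's Wald test, the replicate block, offsets that follow expression level, and each sample left out in turn. SERPIND1 ranged from -2.71 to -2.53, TFPI2 from -1.01 to -0.75, F2RL2 from 0.66 to 0.78 and F2R from -0.13 to -0.04. A fold change of at least 2 left 0 of the 8 tested genes higher and 1 lower, and 1 gene of the related lists higher and 1 lower. The share over all tested genes was not counted at that fold. Without a fold threshold, 2 of the 8 tested genes were higher and 4 lower. Of the 61 tested genes of the lists, 8 were higher and 7 lower. Over all tested genes, 12.6% were higher and 11.3% lower by this rule. With 1 sample left out, the log2 fold change ranged from -2.66 to -2.53 for SERPIND1, from -1.01 to -0.75 for TFPI2 and from 0.71 to 0.78 for F2RL2. The replicate block gave 1 higher and 2 lower of the 10, and 2 and 2 of the listed genes, as without it. Over all 13546 tested genes, the block called 601 higher and 297 lower. Deviations of same-numbered samples had a correlation of 0.05 across genes, and the samples share only a number. Over all genes, DESeq2's test called 540 against 874, and offsets that follow expression level called 357 higher and 386 lower against 581 and 293. The cause was not tested. Raw CPM per kb kept the order of levels. Merged exon lengths, added after the data were seen, kept 7 of the 10 ranks. For SERPINC1 and THBD, depth limits any comparison.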
